A study of Sorghum bicolor with 12 samples.

Results

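The 200 transcripts described here were the most constant transcripts across the 4 uppermost internodes of vegetative sorghum stems, chosen from 47205 transcripts measured by RNA-seq in 12 libraries. A transcript could be chosen if its deposited RPKM (reads divided by transcript length and by the mapped reads of the library) was at least 20 in all 12 libraries, which 3435 transcripts met. Each library was then divided by a scaling factor, the median of its ratios to the 12-library mean across the 17722 transcripts with an RPKM of at least 1 in every library. The 200 transcripts with the lowest coefficient of variation (CV, the SD over the 12 libraries divided by their mean) of the scaled RPKM were taken. The measured values therefore chose the transcripts, so their levels and CVs are given as a description with no test.

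The plants were of the photoperiod-sensitive bioenergy genotype R.07020 of Sorghum bicolor, kept vegetative in a growth chamber under a photoperiod of 14 h and harvested 60 days after planting. The groups were 4 successive internodes counted downwards from the shoot apex, from Int1, the youngest, to Int4, the oldest, with 3 libraries of polyadenylated RNA each. All groups shared genotype, age and growth conditions and differed in position on the stem. Whole internodes were extracted, so fewer cells of a type and less RNA per cell cannot be told apart. As a check of the internode labels, the 3 transcripts whose closest Arabidopsis match in the study's functional list is CESA4, CESA7 or CESA8, the cellulose synthases of secondary walls, were at scaled RPKM of 2.89 to 4.92 in the Int1 libraries, 5.75 to 27.2 in Int2, 122 to 289 in Int3 and 100.8 to 221 in Int4. That list was drawn up by the study from transcripts that changed in these samples, so these values are no independent evidence of a direction. Markers of other cell types were not analysed here.

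Grass internodes grow first by cell division and then by cell elongation, and as elongation ends the cells of the lower internodes build secondary walls, so the transcript population of a stem changes along its axis. Transcripts that keep a steady level through such a change are of practical interest as internal references for quantitative PCR, and are often sought among genes of basic cell functions. RPKM is a share of the mapped reads of a library, so a constant RPKM means a constant share of the transcript population and, after the scaling used here, a constant level relative to the typical transcript, not a constant number of molecules per cell. The deposited table lists transcript identifiers only and none of the 3435 identifiers was found in the RefSeq gene table used. The part of the study's functional list used here names 709 loci, of which 122 met the RPKM minimum and none was a member. The study drew that list from transcripts that differed at least 2-fold between internodes, so steady members would not be on any part of it. Members are therefore called by identifier and no role is given for them.

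The CV of the 200 transcripts ran from 3.13% to 7.77% with a median of 6.72%. The median CV was 21.0% for the other 3235 transcripts that met the RPKM minimum and 26.7% for the 17722 expressed transcripts. The highest library of a member exceeded its lowest by a factor of 1.11 to 1.36, with a median of 1.25, against a median of 1.89 for the other 3235 transcripts.

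**Figure D1:**
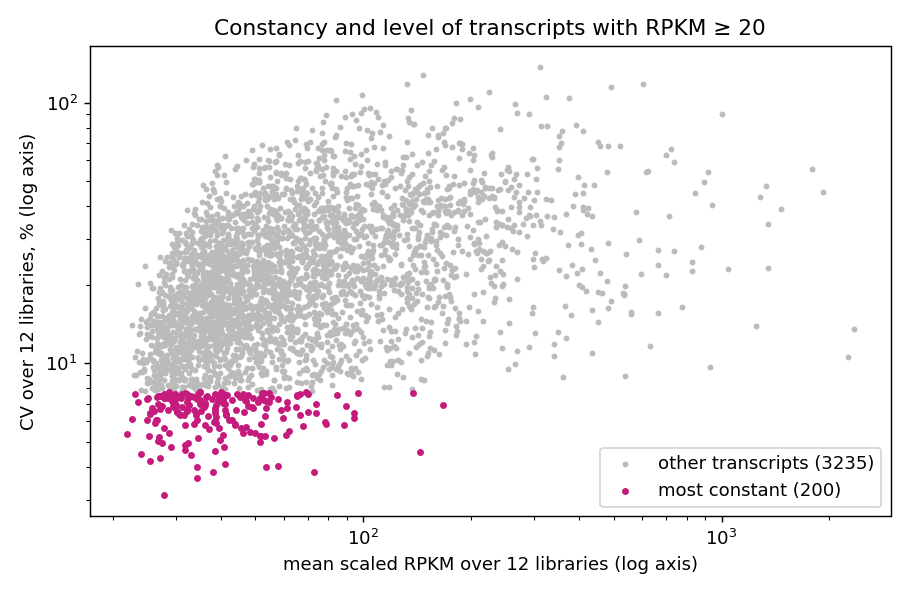
Each point is 1 transcript with an RPKM of at least 20 in all 12 libraries, with the mean scaled RPKM on the horizontal log axis and the CV in percent on the vertical log axis. The 200 chosen transcripts (magenta) lie at or below a CV of 7.77% and the other 3235 (grey) above it, and the chosen ones are found at the lower and middle levels, with 3 of them above a mean of 100.

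The constant transcripts were moderately expressed. Their mean scaled RPKM ranged from 21.9 to 167 with a median of 38.1, against a median of 56.3 for the other 3235 transcripts, and 151 of the 200 had a mean below 50. None of the 100 most abundant transcripts was a member, since the lowest CV among those 100 was 8.85% and their median 28.8%. The most abundant member, Sobic.009G137200.1, ranked 372 in abundance.

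The steadiest transcript was Sobic.006G195700.1, with a CV of 3.13%. Its scaled RPKM was 28.9, 28.0 and 27.0 in Int1, 28.5, 29.3 and 26.4 in Int2, 26.6, 27.8 and 27.5 in Int3, and 27.3, 28.0 and 28.0 in Int4. The libraries of the 4 internodes overlapped throughout, and the internode means of 28.0 ± 0.94, 28.1 ± 1.48, 27.3 ± 0.63 and 27.8 ± 0.41 (SD, n = 3) lay within the spread between replicates. Sobic.001G005600.1 followed with a CV of 3.63%. Its values were 34.2, 34.9 and 35.9 in Int1, 35.6, 33.8 and 33.3 in Int2, 37.1, 34.1 and 33.9 in Int3, and 32.6, 33.5 and 34.5 in Int4, so that the highest library was in Int3 and the lowest in Int4.

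Sobic.003G273600.1, with a CV of 3.83%, was more abundant than both. It gave 69.4, 69.1 and 72.1 in Int1, 71.1, 71.5 and 76.5 in Int2, 78.0, 74.0 and 70.7 in Int3, and 73.0, 72.8 and 75.7 in Int4. All Int4 libraries lay above all Int1 libraries, although the means of 70.2 ± 1.66 and 73.9 ± 1.62 (SD, n = 3) differed by 0.07 on the log2 scale. Sobic.003G280300.1 (CV 3.83%) measured 36.5, 38.0 and 38.1 in Int1, 40.8, 39.97 and 38.6 in Int2, 39.5, 36.1 and 36.9 in Int3, and 39.1, 36.8 and 38.2 in Int4. Sobic.001G061700.1 (CV 4.00%) measured 34.9, 36.7 and 35.5 in Int1, 32.7, 33.7 and 33.6 in Int2, 34.8, 33.3 and 36.7 in Int3, and 34.4, 34.1 and 32.5 in Int4. The former was highest in Int2 and the latter in Int1, in both cases with overlap between most internodes.

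**Figure D2:**
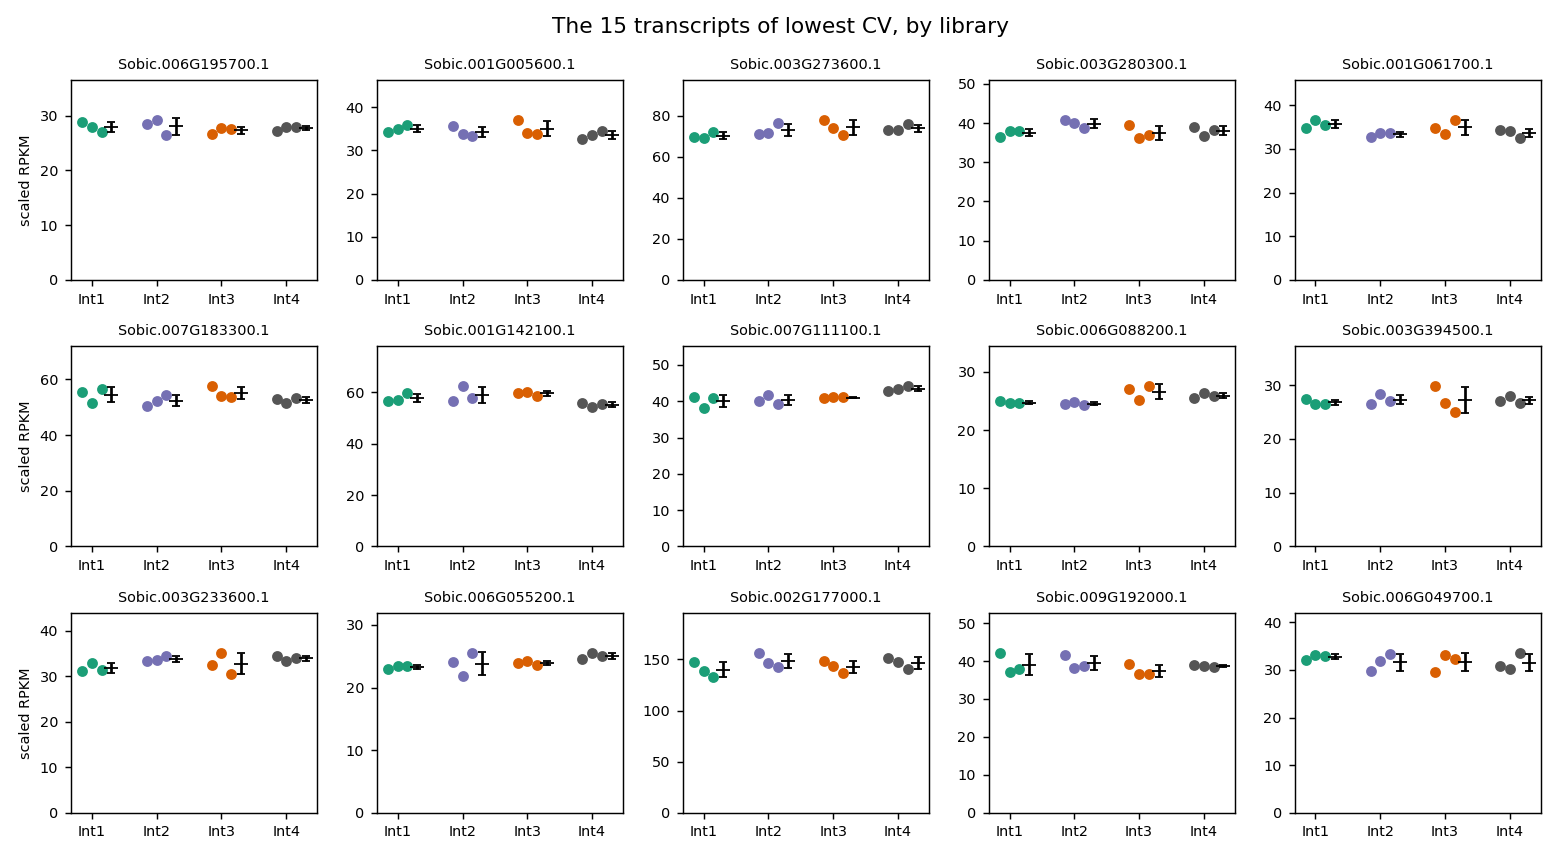
Scaled RPKM (vertical axes, starting at 0) of the 15 transcripts of lowest CV in Int1 to Int4. Points are single libraries and the bars beside them the mean ± SD of 3 libraries. The CVs run from 3.13% for Sobic.006G195700.1 to 4.65% for Sobic.006G049700.1, and the points of all internodes lie close to 1 level in each panel, with small offsets such as that of Int4 in Sobic.007G111100.1 (43.5 ± 0.62 against 40.1 ± 1.63 in Int1).

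The next members in order were Sobic.007G183300.1, Sobic.001G142100.1, Sobic.007G111100.1, Sobic.006G088200.1 and Sobic.003G394500.1, with CVs from 4.00% to 4.31% and mean levels from 25.4 to 57.9. Sobic.007G111100.1 was at 41.3, 38.2 and 40.8 in Int1 and at 42.9, 43.5 and 44.1 in Int4, without overlap. Sobic.001G142100.1 was at 56.8, 57.2 and 59.8 in Int1 and at 56.0, 54.2 and 55.7 in Int4, also without overlap but in the other direction. The last 5 of the 15 steadiest were Sobic.003G233600.1, Sobic.006G055200.1, Sobic.002G177000.1, Sobic.009G192000.1 and Sobic.006G049700.1, with CVs from 4.45% to 4.65%. Sobic.006G055200.1 was at 22.9, 23.4 and 23.5 in Int1, 24.0, 21.9 and 25.5 in Int2, 24.0, 24.2 and 23.6 in Int3, and 24.6, 25.6 and 25.04 in Int4. Its Int1 and Int4 libraries did not overlap, and both its lowest value and a value near its highest were in Int2. Sobic.009G192000.1 was at 42.2, 37.0 and 37.8 in Int1, 41.6, 38.2 and 38.8 in Int2, 39.3, 36.5 and 36.5 in Int3, and 38.9, 38.7 and 38.4 in Int4. The replicates of this transcript were closest in Int4, with an SD of 0.25 (n = 3), and widest in Int1, with an SD of 2.79.

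Sobic.002G177000.1 combined a low CV with a high level. Its scaled RPKM was 147, 139 and 133 in Int1, 157, 147 and 143 in Int2, 148, 144 and 136 in Int3, and 152, 147 and 140 in Int4. All internodes overlapped, and the spread within each of them was about as wide as that over all libraries. Its CV was 4.55% at a mean of 144.

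The other 4 of the 5 most abundant members varied more. Sobic.009G137200.1 (CV 6.94%) was at 170, 158 and 152 in Int1, 160, 163 and 157 in Int2, 182, 179 and 163 in Int3, and 159, 171 and 191 in Int4. Its highest library and one of its lower ones were both in Int4, where the SD of 16.1 around a mean of 174 (n = 3) was the largest of the 4 internodes. Sobic.004G049900.1 (CV 7.67%) had internode means of 126 ± 6.73, 135 ± 5.61, 143 ± 7.21 and 146 ± 10.96 from Int1 to Int4 (SD, n = 3). Sobic.004G349100.1 (CV 7.72%) had means of 88.2 ± 3.89, 94.1 ± 2.94, 106 ± 4.99 and 100.1 ± 2.81, and Sobic.007G203200.1 (CV 6.17%) of 97.9 ± 2.49, 99.8 ± 2.17, 93.7 ± 5.10 and 86.8 ± 1.27. In Sobic.007G203200.1 all 3 Int4 libraries, at 86.7, 85.6 and 88.2, lay below all Int1 and Int2 libraries.

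The limits of the set were narrow. The last members inside it were Sobic.001G111600.1 at a CV of 7.766% and Sobic.007G118200.1 at 7.770%, and the first transcripts outside were Sobic.001G363500.1 at 7.773% and Sobic.001G026500.1 at 7.800%. At the RPKM minimum, Sobic.008G089100.1 and Sobic.005G196900.1 were inside with lowest deposited values of 20.05 and 20.11, and Sobic.010G055500.1 and Sobic.003G137100.1, with CVs of 7.08% and 7.64%, were outside with 19.93 and 19.82. In all, 368 expressed transcripts had a CV no higher than the highest member, and 168 of them missed the RPKM minimum, 55 with a lowest value between 15 and 20.

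Small differences between internodes remained within the set. The log2 difference between the Int4 and Int1 means ran from -0.24 to 0.26 with a median of 0.0051, and 122 of the 200 members differed by less than 0.1. The largest rise was that of Sobic.001G251700.1, from 32.6, 35.5 and 33.7 in Int1 to 40.3, 41.5 and 40.3 in Int4, and the largest fall that of Sobic.004G339600.1, from 28.1, 28.6 and 29.5 to 24.5, 24.6 and 23.8. In both, the libraries of Int1 and Int4 did not overlap and the means of Int2 and Int3 lay between them. Sobic.001G103900.1 stood at 35.7 ± 1.75 in Int1 and 41.9 ± 1.21 in Int4, and Sobic.007G118200.1 at 75.9 ± 2.92 and 64.6 ± 2.48 (SD, n = 3).

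The members did not share one profile. The highest internode mean belonged to Int1 in 38 members, to Int2 in 59, to Int3 in 63 and to Int4 in 40. These were 19%, 29.5%, 31.5% and 20% of members, against 21.5%, 27.9%, 17.2% and 33.5% of the other 3235 transcripts. The highest single library was Int3 replicate 1 in 54 members, against 5 for replicate 2 and 18 for replicate 3 of Int3. What that library adds to the Int3 count, or to the orders below, was not tested. The means rose at every step from Int1 to Int4 in 11 members (5.50%, against 22.2% of the other 3235 transcripts) and fell at every step in 8 (4.00%, against 6.21%). An example of the first is Sobic.003G195000.1, with means of 29.4, 32.1, 33.6 and 34.1, and of the second Sobic.001G208700.1, with 38.4, 36.2, 33.4 and 32.7, both picked after their values were seen. In 83 members (41.5%, against 33.7%) the highest mean was in Int2 or Int3 and the lowest in Int1 or Int4, and in 45 (22.5%, against 23.0%) the reverse held. Sobic.004G212700.1, with means of 53.7, 59.95, 55.5 and 49.6 from Int1 to Int4, belonged to the former and Sobic.006G058100.1, with 79.5, 75.8, 67.8 and 73.1, to the latter. These orders include differences smaller than the spread between replicates and are counts without a test.

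The share of a member's variance over the 12 libraries that lay between internodes had a median of 48.9% and ran from 2.75% to 98.3%. The median of the other 3235 transcripts was 85.2%. The rule took transcripts of low CV over all internodes, so a lower share in the members follows largely from the rule. The share was at least 90% in 2 members, which were singled out after their values were seen. Sobic.007G200600.1 was at 21.8, 21.4 and 21.7 in Int1, 21.4, 21.2 and 21.0 in Int2, 23.8, 23.6 and 23.6 in Int3, and 24.3, 24.6 and 24.1 in Int4. The young internodes and the old ones formed 2 levels with no overlap, and the highest library was 1.17 times the lowest. Sobic.008G088200.1 was at 62.0, 62.4 and 61.3 in Int1, 63.3, 66.3 and 65.5 in Int2, 58.2, 55.9 and 57.7 in Int3, and 64.9, 65.5 and 64.3 in Int4, with Int3 below all other libraries. In both transcripts the low CV included a difference between internodes that was larger than the spread between replicates. At the other end, Sobic.003G394500.1 had internode means between 26.8 and 27.3 and only 2.82% of its variance between internodes.

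Fitted with limma over the 26417 transcripts with a mean scaled RPKM of at least 1 in an internode, none of the 200 members was called between Int4 and Int1 with the thresholds of an adjusted p below 0.001 and a 2-fold difference, beside a background of 24.7% of all tested transcripts. An unadjusted p under 0.05 was reached by 25 members (12.5%), beside a background of 65.1%. None was called between any pair of internodes either, beside a background of 29.4%. Past the F test over the 4 internodes at an adjusted p under 0.05, which has no fold threshold, were 14 members beside a background of 66.9%. That count was 4 with the replicate number as a block, 15 without Int3 replicate 1, 2 to 9 without any 1 of the other 11 libraries, and 110 with no scaling between libraries. The Int1 and Int4 libraries did not overlap in 76 members, 40 with Int4 higher and 36 with Int4 lower, beside backgrounds of 67.4%, 33.9% and 33.6%. The rule used the same values, so nothing is read from these counts. The fit treats the 12 libraries as independent although the internodes were taken from the same 3 plants.

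The members' levels followed the library scaling. Scaling factors were 1.05 to 1.07 in Int1, 0.983 to 1.02 in Int2, 0.957 to 0.992 in Int3 and 0.842 to 0.921 in Int4. In the deposited, unscaled RPKM, every one of the 200 members was lower in Int4 than in Int1, with a median log2 difference of -0.26 (-0.50 to -0.0006), beside -0.25 over all transcripts tested. After scaling the median over all transcripts tested was -0.01. The members were chosen as steady after division by these factors. Their lower unscaled values in Int4, here and in the next sentences, therefore follow largely from the rule. The summed deposited RPKM of the 200 members was 8912 to 9250 in the Int1 libraries and 7171 to 7979 in the Int4 libraries, or 1.78% to 1.87% and 1.42% to 1.61% of all RPKM. Sobic.006G195700.1, the steadiest after scaling, had deposited values of 30.9, 29.5 and 28.4 in Int1 and 23.0, 24.7 and 25.8 in Int4, without overlap. The median CV of the members was 9.60% before scaling, and 64 of them were among the 200 of lowest CV in the unscaled values. Whether the total transcript population or the members' own amount per cell differed cannot be told apart in RPKM.

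**Figure D3:**
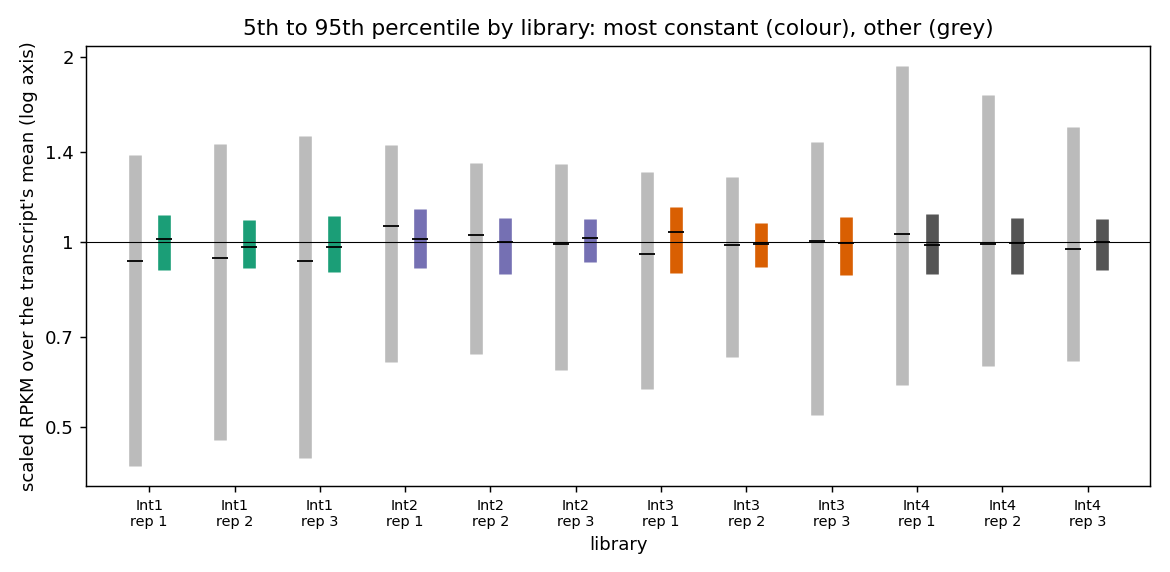
For each library, the range from the 5th to the 95th percentile of scaled RPKM divided by the transcript's mean over 12 libraries (vertical log axis), for the 200 chosen transcripts (coloured by internode) and the other 3235 (grey), with the median as a black line. The chosen transcripts span a narrower range than the others in every library, with an SD from 4.98% in Int3 replicate 2 to 7.79% in Int3 replicate 1, and their median is highest in Int3 replicate 1, at 1.04.

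One library stood apart within the set. The median ratio of the members to their own means was 103.8% in Int3 replicate 1 and 97.9% to 101% in the other 11 libraries, and 54 of the 200 members had their highest value in Int3 replicate 1, more than in any other library. The lowest value was most often in Int4 replicate 1, in 29 members. When the set was chosen again without Int3 replicate 1, 162 of the 200 members were kept, the fewest for any library left out, and the highest CV of the new set was 7.38%.

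Each library left out in turn gave 11 libraries for the choice and 1 that the choice had not used. Between 162 and 189 members were kept, and 136 were kept in all 12 choices. The 15 steadiest were kept in every one. That was near certain beforehand, as their CVs lay far below the highest CV of each new set, 7.38% to 7.88%. The values of the left-out library deviated from the mean of the other 11 by a median of 4.08% to 6.63% for the transcripts chosen without it, except in Int3 replicate 1 with 12.6%. The corresponding medians were 13.6% to 23.1% for the transcripts that met the minimum but were not chosen, with 16.4% in Int3 replicate 1. Within 20% of the mean of the other 11 libraries were 165 of the 200 chosen there, against 182 to 200 for the other left-out libraries. In Int3 replicate 1 the chosen transcripts were shifted together, by a median of 11.1%, after scaling with the same factor as all other transcripts.

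A stricter comparison left out all 3 libraries of an internode. Choosing on the other 9 libraries kept 117 members without Int1, 134 without Int2, 134 without Int3 and 108 without Int4. In the internode not used, the chosen transcripts deviated from their mean over the other 3 internodes by a median of 8.73% (Int1), 9.53% (Int2), 7.63% (Int3) and 8.88% (Int4), against 25.6%, 19.4%, 17.1% and 23.5% for the transcripts not chosen. Within 20% of that mean were 167, 167, 184 and 153 of the 200 chosen. The largest deviation of a chosen transcript was 90.2%, in Int4. At the median, transcripts steady in 3 internodes lay nearer to their level in the fourth than the other transcripts at the same minimum. There were exceptions in each internode. The transcripts not chosen were those of higher CV in the other 9 libraries, so a smaller deviation of the chosen was likely beforehand. All internodes came from the same 3 plants, so the left-out libraries are no independent check of the set. Both limits hold for the single libraries left out as well.

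Because RPKM values of low transcripts rise in steps of 1 read, the reads behind a value could be recovered for many transcripts together with the transcript length. The recovered depth per library ran from 10715000 to 13519000 mapped reads. Whole reads were recovered for 157 of the 200 members and 2722 of the other 3235, with fits accepted up to a length of 3250 bases. Only 78.5% of the members therefore have a length, with the longest transcripts missing, and a comparison of lengths is void. The steadiest transcript, Sobic.006G195700.1, with 1683 bases, rested on 668, 657 and 559 reads in Int1, 540, 555 and 499 in Int2, 471, 517 and 481 in Int3, and 468, 556 and 587 in Int4. Across the 157 members the mean number of reads per library ran from 270 to 3961 with a median of 785.

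Read numbers give the CV that would be expected from counting error alone, and a measured CV can fall below it by chance. Counting error alone would give a CV of 3.58% at the median of the 157 members (1.60% to 6.15%). Their measured CV was 1.88 times the counting CV at the median, against 6.74 times in the other 2722. The rule chose by the measured CV, so the lower ratio of the members follows largely from the rule. The measured CV was below 2 times the counting CV in 96 members and below 1.5 times in 40. For Sobic.006G195700.1 it was 0.726 times the counting CV of 4.31%, so any variation beyond counting was not detectable at this depth. Sobic.001G005600.1, with a mean of 1023 reads, was at 1.15 times its counting CV, Sobic.003G280300.1 with 695 reads at 1.01 times, and Sobic.001G061700.1 with 645 reads at 1.01 times. Sobic.003G273600.1, of similar CV but deeper with 1894 reads, was at 1.66 times its counting CV of 2.31%. These expected CVs cover counting error only, since reads without molecular identifiers are not independent molecules.

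**Figure D4:**
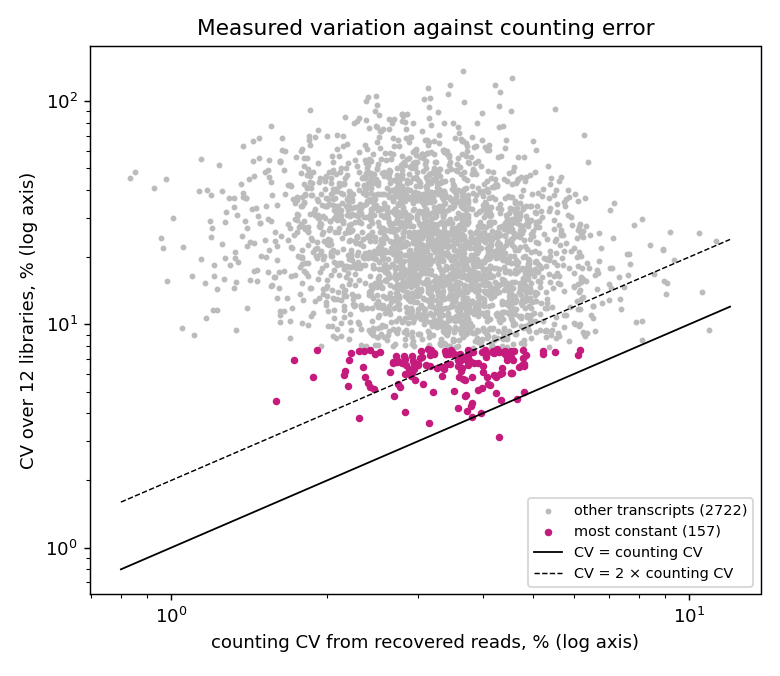
CV over the 12 libraries in percent (vertical log axis) against the CV that counting error alone would give (horizontal log axis) for the 157 chosen transcripts (magenta) and 2722 others (grey) with recovered reads. The solid line marks equality and the dashed line a CV of 2 times counting, and 96 of the 157 chosen transcripts lie below the dashed line.

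The deeper members carried more than counting error. Sobic.002G177000.1, with a mean of 3961 reads, had a CV 2.85 times its counting CV of 1.60%, and Sobic.009G137200.1, with 3407 reads, 4.02 times. Members made up 2.66% of the transcripts with fewer than 400 recovered reads per library, 9.59% of the transcripts with 400 to 800 reads, 4.99% of those with 800 to 1600, 3.01% of those with 1600 to 3200 and 0.943% of those with more. From 400 reads upwards the lowest CV rose along the same classes, from 3.13% to 3.63%, 3.83% and 4.55%. The counting CV fell there from a median of 4.16% to 1.62%. Under 400 reads the lowest CV was 7.29%. From the fewest reads to the most, the classes held 188, 813, 1102, 564 and 212 transcripts. The lowest CV of a class depends on its size, so no effect of depth is read from it. Among the 12 other transcripts within 1.5 times their counting CV, the median was 244 reads and a CV of 9.20%.

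The members came from 200 loci on all 10 chromosomes, as the locus number in the identifier gives them. They were 5.82% of the transcripts at the RPKM minimum, 8.07% on chromosome 3 (38 of 471) and 2.46% on chromosome 10 (7 of 284). A single pair of members had neighbouring locus numbers, Sobic.009G044800.1 and Sobic.009G044900.1. Of members that followed each other in locus order, 18 pairs lay within 10 locus numbers. Pairs with another member between them were not counted. Whether members lie closer together than other transcripts was not tested. Sobic.009G044800.1 was highest in Int2, at 95.2 ± 2.73, and Sobic.009G044900.1 in Int3, at 85.3 ± 4.09 (SD, n = 3). Transcript number 1 of the locus was the member in 196 cases (98.0%, against 93.3% of the others), and 159 loci had a single annotated transcript (79.5%, against 79.8%).

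The remaining 41 loci had 49 further transcripts, which the rule did not use. All 31 of them with a mean scaled RPKM of at least 1 were less abundant than the member of their locus. Their CV ran from 19.2% to 68.4% with a median of 41.4%, against 32.5% for all transcripts with such a mean. Only 8 had a mean of at least 5, with a median CV of 36.0% against 26.9% for all transcripts with that mean. These comparisons were not matched for level or reads. Recovered reads per library were as few as 0 to 22 in Sobic.004G134700.2, so counting error is part of these CVs and was not separated. Reads shared between transcripts of a locus can be divided between them during alignment, and what this adds to the CV was not tested. Summed over all transcripts of the locus, the CV had a median of 6.41% against 6.90% for the member alone, and 40 of the 41 sums were at or below 7.77%. The member held a median of 96.5% of its locus sum, and at least 77.9%.

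Of these further transcripts 35 could be tested. Beside a background of 24.7%, not matched for level or reads, 1 (2.86%) was called between Int4 and Int1. This was Sobic.001G433800.2, at 14.3, 20.9 and 17.6 in Int1, 9.50, 8.72 and 6.93 in Int2, 7.37, 3.62 and 7.47 in Int3, and 3.81, 4.16 and 4.84 in Int4. It fell by 1.92 on the log2(RPKM + 0.5) scale (SE 0.24, adjusted p 2.85e-05 with limma), with all Int4 libraries below all Int1 and Int2 libraries. The member of the same locus, Sobic.001G433800.1, was at 69.2, 60.5 and 63.6 in Int1, 69.4, 66.3 and 74.4 in Int2, 71.1, 68.3 and 63.1 in Int3, and 70.6, 68.6 and 70.0 in Int4. Its internodes overlapped, at a CV of 5.73% and a mean of 67.9. The member held 88.2% of the summed RPKM of the locus, and the sum had a CV of 5.61%. This sum was nevertheless lower in every Int4 library than in every Int1 library.

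**Figure D5:**
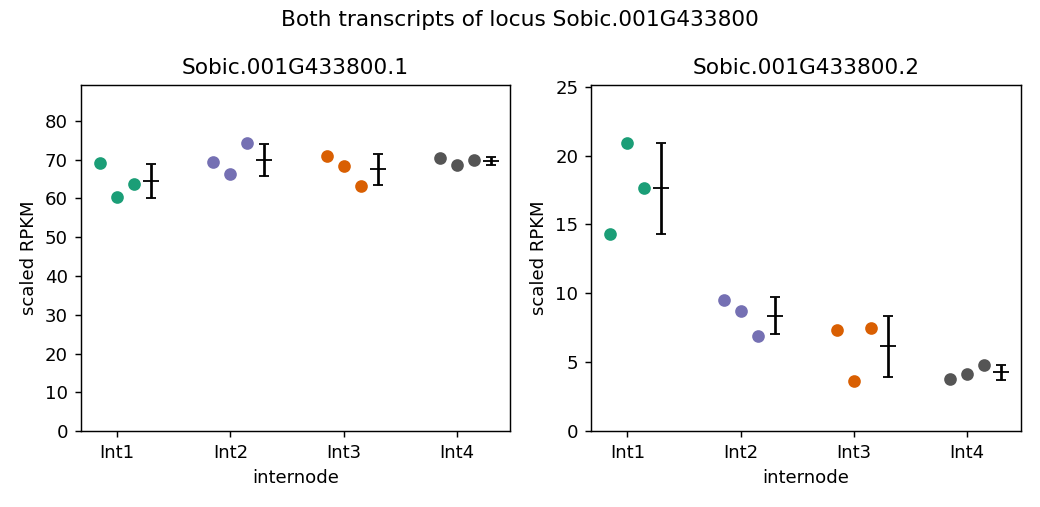
Scaled RPKM (vertical axes, starting at 0) of both transcripts of locus Sobic.001G433800 in Int1 to Int4, with points for single libraries and bars for the mean ± SD of 3 libraries. Sobic.001G433800.1 stays between 60.5 and 74.4 in all libraries, while Sobic.001G433800.2 goes from 17.6 ± 3.31 in Int1 to 4.27 ± 0.52 in Int4.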

How the data were processed

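The authors aligned single-end reads to sorghum transcript sequences with the CLC genomics workbench and deposited 1 table of RPKM values with 2 decimals for 47205 transcripts in 12 libraries. The table holds no counts, so the authors' edgeR test was not repeated. No column was left unused. The members and lists were chosen with earlier results of these data known.

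Scaled RPKM (each library divided by the median of its ratios to the mean of all libraries) was transformed to log2(value + 0.5), and a model of the 4 internode means was fitted in R 4.3.3 with limma 3.58.1, a prior variance following the mean and Benjamini-Hochberg adjustment. Called meant an adjusted p under 0.001, a log2 change of at least 1 and a mean of at least 2 in an internode compared. Fold changes on this scale understate those of low transcripts. Replicates are those of the labels, which do not tie a number to a plant.

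Relative depth, transcript lengths and whole reads were recovered from the steps of the RPKM values, within rounding of 0.005 and 0.02 reads. This method was developed, and its tolerance and the pass line of its test were changed, after seeing the data and first test failures. On simulated data 1581 of 3000 transcripts were recovered, 95.5% of them exactly and 98.9% within 1%, so single read numbers may be off. The counting CV is that of Poisson counts at these reads. In simulated data, limma called 164 of 200 transcripts with a log2 change of 2, with no false call among 24508. The rule found 199 of 200 planted constant transcripts. These were simulated as far steadier than the rest, more abundant than most members and without differences between internodes. The result therefore checks the code only, not how well the rule separates the members from transcripts near the limit.

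Named were the 15 members of lowest CV, the 2 on each side of the CV limit, the 5 of highest mean, the 2 with the largest rise and the 2 with the largest fall, and called further transcripts of the members' loci. Others were named after their values were seen. Tables and plots used matplotlib 3.10.9, pandas 2.3.3, numpy 2.4.6 and scipy 1.17.1 under Python 3.11.15. Planned groups by gene function, reference gene families and promoter motifs were not analysed here. Neither the RefSeq table nor the part of the study's functional list used here names a member. The rest of that list, drawn from transcripts that differed between internodes, would not be expected to name them either. Of the planned tissue markers, the secondary wall cellulose synthases could be taken from that list.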

Additional observations from a re-analysis of the deposited data

How the results depend on the processing

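The members depended on the settings. Of the 200, the set kept 64 with no scaling between libraries, 128 at an RPKM of at least 10 and 118 at 5. At an RPKM of at least 50 it kept 25, which are all the members that reach that minimum, so that setting tests nothing. It kept 113 by the median absolute deviation, and 128 when the scaling used transcripts with an RPKM of at least 20. Over each library left out it kept 162 to 189. In alternatives added after seeing the data it kept 109 by CV over counting CV, out of the 157 with recovered reads, 117 without Int1 and 108 without Int4. SD of log2 values kept 195, internode means 140 and locus sums 165. Members past the F test, 14 in the report, were 8 without a filter on low values and 110 with no scaling, and 2 to 15 over libraries left out, the most without Int3 replicate 1. With the replicate number as a block they were 4, and 6257 transcripts were called between Int4 and Int1 in place of 6535. Between Int1 and Int2, libraries with the same number had correlated deviations (r of 0.129, 0.103 and 0.138, with 6 of 6 libraries correlating best with their own number). In the other 5 pairs of internodes not every such r was over 0.1. For Int1 and Int4 they were 0.075, 0.046 and 0.110, and for Int2 and Int4 0.219, 0.043 and 0.234. In both of these pairs, 5 of 6 libraries correlated best with their own number. In the pairs of Int3 with Int1, Int2 and Int4, 2, 1 and 2 of 6 did. For Int3 and Int4 the same-number r was -0.236, 0.181 and -0.338, with a different-number r of up to 0.373. The labels tie no number to a plant, so whether the numbers pair the samples over all 4 internodes is not known. An adjusted p under 0.05 together with the 2-fold threshold called 0 members as well. That was certain, as no member's highest library exceeded its lowest by more than a factor of 1.36. The call of Sobic.001G433800.2 held in every alternative, and counts over all transcripts stayed within 1.5 times. Alternatives for groups by function and reference families were not run.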
